A study of Mus musculus with 6 samples.

Results

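The genes described here are 9 that mark the progenitor cells of adipose tissue, namely Pdgfra, Pdgfrb, Cd34, Ly6a, Thy1, Dpp4, Pi16, Anxa3 and Clec3b. They were chosen by name, as the rows of the deposited count table whose Ensembl mouse identifier belongs to one of these symbols, and they are 9 of the 35122 genes listed. All 9 were found and all 9 had enough counts to be tested. RNA was sequenced from adipocytes of epididymal fat of 6 mice, 1 library per mouse, taken as the layer that floats after digestion with collagenase. The 3 control mice were PU.1 fl/fl animals, which carry loxP sites around exon 5 of Spi1, the gene of the ETS transcription factor PU.1. The 3 aPU.1KO mice carried the same floxed alleles and AdipoqCre, a Cre recombinase driven by the adiponectin promoter, which is active in adipocytes. By the labels all 6 were male C57BL/6 mice, fed standard chow and 10 to 11 months old, while the study's text names an older age. The mice are numbered 1 to 3 within each group here, and these numbers pair no animals.

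Adipose progenitors are mesenchymal cells that lie in the stroma and along the vessels of fat and can become adipocytes. They are commonly sorted by the platelet-derived growth factor (PDGF) receptors, by the surface antigens CD34, Sca-1 and CD90, and by the absence of blood and endothelial antigens. Dpp4, Pi16, Anxa3 and Clec3b are used to mark an early population in the interstitium that surrounds the lobules of fat, as distinct from preadipocytes that are further along. Mature adipocytes lose most of these markers, and progenitors are expected in the pellet rather than in the floating layer after digestion. Several of the 9 genes are also used by other cells: Cd34 and Ly6a by endothelial cells, Pdgfrb by the mural cells of vessels and Thy1 by T cells.

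Total estimated counts were between 20550252 and 24310144 in 5 of the libraries and 69283842 in control mouse 1. Values below are normalized counts (CPM), that is, estimated counts scaled to a common library size with TMM factors from edgeR, and log2 fold changes give the aPU.1KO level over that of the control. Spi1 was counted at 24.3, 6.35 and 26.7 CPM in control mice 1, 2 and 3 and at 3.20, 1.22 and 4.17 CPM in aPU.1KO mice 1, 2 and 3, so the groups did not overlap. These counts include reads from the exons that are not deleted. Its log2 fold change was -2.75 with a standard error of 0.64 (adjusted p = 0.0788, edgeR's quasi-likelihood test). Control mouse 2 stood apart from the other control mice over all genes, at -0.31 on the first axis of a multidimensional scaling of the libraries against -1.59 and -1.67. The second aPU.1KO mouse stood apart from its group as well, at 1.995 on this axis against 0.86 and 0.71 in aPU.1KO mice 1 and 3. On the second axis it was at -1.079 against 0.88 and 0.96. Among the control mice, mouse 2 was also low in Spi1, in the summed T cell genes and in 12 macrophage genes. The summed level of the macrophage genes was 480 CPM there and 1477 and 1427 CPM in control mice 1 and 3, although Cd163 and Mertk were highest in control mouse 2. The markers of mature adipocytes led the libraries as their label says, with summed levels of 60049 to 69148 CPM in the control mice and 76314 to 87078 CPM in the aPU.1KO mice.

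All 9 progenitor genes had a negative log2 fold change, against 48.0% of the 13925 genes tested. Their median log2 fold change was -0.95, and that of all genes tested was 0.014. For 6 of the 9, Pdgfra, Pdgfrb, Cd34, Thy1, Pi16 and Clec3b, all aPU.1KO mice lay below the lowest control mouse, which was so for 15.5% of all genes tested. The same 6 had an unadjusted p under 0.05 by edgeR's quasi-likelihood test, against 13.7% of genes that did so in the lower direction. After Benjamini-Hochberg adjustment over all genes only Pdgfrb passed the threshold of 0.05, which 0.18% of genes did in the lower direction. DESeq2 put 5 of the 9 below 0.05, all but Ly6a, Thy1, Dpp4 and Anxa3, against 7.48% of its genes. None of the 9 was called in the higher direction by any of these measures, where the shares of all genes were 52.0% for the sign alone, 16.7% for groups that did not overlap, 11.9% and 0.0575% for edgeR's unadjusted and adjusted p, and 3.51% for DESeq2. In RNA of a whole fraction, fewer cells of a type and less RNA per cell cannot be told apart.

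**Figure D1:**
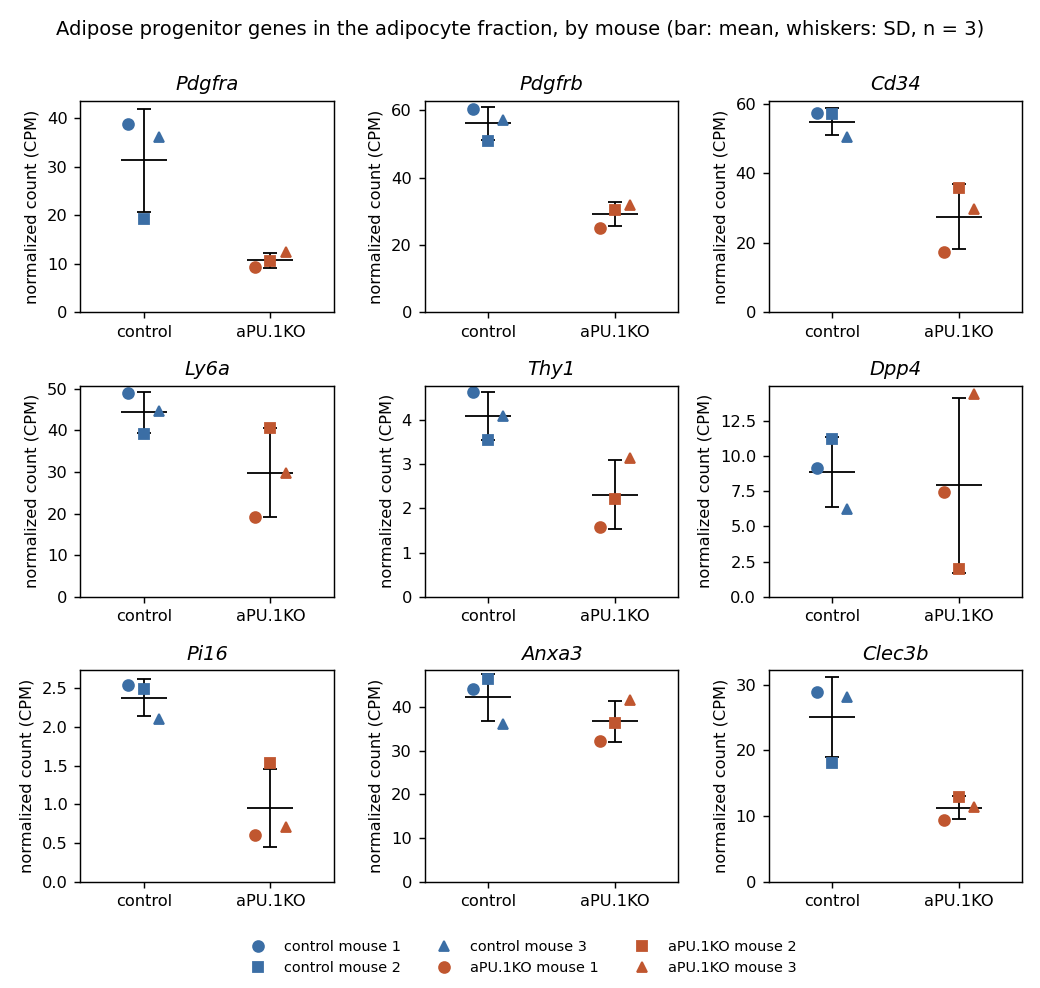
Normalized counts (CPM, vertical axes, each starting at 0) of the 9 progenitor genes in the control and aPU.1KO mice, with a point per mouse, a bar at the group mean and whiskers of 1 SD (n = 3). The groups are apart for Pdgfra, Pdgfrb, Cd34, Thy1, Pi16 and Clec3b and overlap for Ly6a, Dpp4 and Anxa3.

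The PDGF receptors are tyrosine kinases that carry growth signals into mesenchymal cells, and PDGFRα, the product of Pdgfra, is the receptor most used to define adipose progenitors. Pdgfra (ENSMUSG00000029231) lies on the forward strand of chromosome 5, from 75152292 to 75198215 in GRCm38. It was counted at 38.7, 19.2 and 36.1 CPM in control mice 1, 2 and 3 and at 9.25, 10.5 and 12.4 CPM in aPU.1KO mice 1, 2 and 3. Control mouse 2 was the lowest of its group and still above all aPU.1KO mice. The group means were 31.3 ± 10.6 and 10.7 ± 1.57 CPM (SD, n = 3), and the log2 fold change of -1.55 was the most negative of the 9, with a standard error of 0.27. It did not pass the threshold in edgeR's quasi-likelihood test (adjusted p = 0.0725) and did with DESeq2 (adjusted p = 7.89e-06). Control mouse 2 bore on this result: without it the log2 fold change was -1.81, with an edgeR adjusted p of 0.00292. That fit called 1193 of all genes, against 33 with all mice. Without control mouse 1, control mouse 3 and aPU.1KO mice 1, 2 and 3 the edgeR adjusted p of Pdgfra was 0.313, 0.229, 0.192, 0.118 and 0.0784.

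Pdgfrb (ENSMUSG00000024620; chromosome 18, forward strand, 61045150 to 61085061, GRCm38) encodes PDGFRβ, which is shared by progenitors and by pericytes and smooth muscle of vessels. Its level was 60.4, 50.7 and 57.2 CPM in the control mice and 25.0, 30.2 and 31.9 CPM in the aPU.1KO mice. Both groups were tight and lay far apart, and control mouse 2 was again the lowest of its group. Pdgfrb fell by 0.95 on the log2 scale with a standard error of 0.12, to 51.8% of the control mean (edgeR's quasi-likelihood test, adjusted p = 0.0491). The adjusted p was just under the threshold and was 0.275, 0.229, 0.130, 0.0816 and 0.0667 without control mouse 1, control mouse 3 and aPU.1KO mice 1, 2 and 3, and 0.00879 without control mouse 2. The log2 fold change itself stayed between -1.03 and -0.86 with any mouse left out.

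The 4 genes of PDGF ligands were all tested, and none passed an adjusted p of 0.05 by edgeR. Pdgfd, a ligand of PDGFRβ, was lower in every aPU.1KO mouse, at 13.1 ± 3.04 CPM in the control and 6.84 ± 1.09 CPM in the aPU.1KO mice (log2 fold change -0.94, standard error 0.22, edgeR adjusted p = 0.0786). The groups overlapped for Pdgfa, Pdgfb and Pdgfc, with log2 fold changes of -0.14, -0.47 and 0.13. The sum of the 4 was 96.2 to 100.4 CPM in the control and 78.1 to 89.6 CPM in the aPU.1KO mice, without overlap.

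CD34 is a sialomucin of the surface of progenitors and of small vessels. Cd34 (ENSMUSG00000016494; chromosome 1, forward strand, 194938819 to 194961279, GRCm38) was counted at 57.2, 56.9 and 50.3 CPM in the control mice and at 17.3, 35.6 and 29.6 CPM in the aPU.1KO mice. The control mice were alike, and the aPU.1KO mice were spread widely with mouse 1 lowest. Its log2 fold change was -0.996 with a standard error of 0.24, and the adjusted p was 0.0853 with edgeR's quasi-likelihood test and 0.00233 with DESeq2.

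Ly6a encodes Sca-1, a glycolipid-anchored protein used to sort stem and progenitor cells in the mouse. Ly6a (ENSMUSG00000075602; chromosome 15, reverse strand, 74994877 to 74998031, GRCm38) had 49.1, 39.2 and 44.7 CPM in the control mice and 19.2, 40.6 and 29.7 CPM in the aPU.1KO mice. The groups overlapped, since aPU.1KO mouse 2 exceeded control mouse 2. The log2 fold change was -0.57 with a 95% confidence interval of -1.18 to 0.03, so that levels from 0.443 to 1.02 times the control level lay within it (edgeR's quasi-likelihood test, adjusted p = 0.214). A stretch of 263 bases of the Ly6a transcript matches Ly6c1, a gene of endothelial cells and monocytes, at 96.6%. How the counting split reads between them cannot be told from the counts. Ly6c1 was counted at 67.6, 66.1 and 58.1 CPM in the control mice and at 32.8, 84.3 and 49.3 CPM in the aPU.1KO mice, with the same order of aPU.1KO mice as Ly6a.

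Thy1 (ENSMUSG00000032011; chromosome 9, forward strand, 44043384 to 44048579, GRCm38) encodes CD90, a glycolipid-anchored protein of fibroblasts, progenitors and T cells. It was a gene of low level, at 4.61, 3.55 and 4.08 CPM in the control mice and 1.58, 2.21 and 3.13 CPM in the aPU.1KO mice, from 31 to 335 counts per library. The groups did not overlap, and aPU.1KO mouse 3 came close to control mouse 2. Its log2 fold change was -0.83 with a standard error of 0.28, and neither test passed the threshold (adjusted p = 0.134 by edgeR and 0.0647 by DESeq2).

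Of the 4 genes of the interstitial population, the groups did not overlap for Clec3b and Pi16 and overlapped for Dpp4 and Anxa3, and differences between the 4 genes were not tested. Clec3b, the gene of tetranectin, a secreted protein that binds plasminogen, lies on chromosome 9 (ENSMUSG00000025784; forward strand, 123150946 to 123157432, GRCm38). It was counted at 29.0, 18.0 and 28.1 CPM in the control mice and at 9.40, 13.0 and 11.4 CPM in the aPU.1KO mice. As for Pdgfra, control mouse 2 lay between the other control mice and the aPU.1KO mice. The log2 fold change was -1.15 with a standard error of 0.21, and the adjusted p was 0.0725 with edgeR's quasi-likelihood test and 6.49e-05 with DESeq2. The edgeR adjusted p was 0.00704 without control mouse 2 and ran from 0.0867 to 0.313 with any other mouse left out.

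Pi16 (ENSMUSG00000024011; chromosome 17, forward strand, 29317680 to 29330593, GRCm38) encodes peptidase inhibitor 16, a secreted protein. It had the lowest level of the 9, at 2.55, 2.495 and 2.10 CPM in the control mice and 0.610, 1.54 and 0.710 CPM in the aPU.1KO mice, which rest on 12 to 185 counts. The groups did not overlap, and aPU.1KO mouse 2 was the nearest to the control mice. The log2 fold change was -1.31 with a standard error of 0.38, and the adjusted p was 0.105 with edgeR's quasi-likelihood test and 0.0248 with DESeq2. Transcripts of 45 other genes hold a stretch of at least 100 bases that matches a Pi16 transcript at 95% or more, so part of these few counts is uncertain.

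Dpp4 encodes CD26, a surface peptidase that cleaves short peptides such as incretins (ENSMUSG00000035000; chromosome 2, reverse strand, 62330073 to 62412231, GRCm38). Its level was 9.12, 11.2 and 6.23 CPM in the control mice and 7.47, 1.94 and 14.4 CPM in the aPU.1KO mice. The aPU.1KO group held both the lowest and the highest of the 6 values, and the groups overlapped. Dpp4 had a log2 fold change of -0.16 with a 95% confidence interval of -1.62 to 1.31, which leaves a wide range of change in either direction (edgeR's quasi-likelihood test, adjusted p = 0.892). Without aPU.1KO mouse 2 the log2 fold change was 0.30, and without aPU.1KO mouse 3 it was -0.91, so its direction rests on single mice.

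Anxa3 encodes annexin A3, a protein that binds membranes in the presence of calcium (ENSMUSG00000029484; chromosome 5, forward strand, 96793339 to 96845966, GRCm38). It was counted at 44.2, 46.3 and 36.0 CPM in the control mice and at 32.2, 36.4 and 41.6 CPM in the aPU.1KO mice. The 6 values were close together and the groups overlapped. Anxa3 had a log2 fold change of -0.20 with a 95% confidence interval of -0.52 to 0.12, so that levels under 0.699 times the control level lay outside it (edgeR's quasi-likelihood test, adjusted p = 0.387).

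With 3 mice against 3, a two-sided exact permutation test cannot give a p below 0.1. The 6 genes whose groups did not overlap had this smallest p of 0.1. Ly6a, Anxa3 and Dpp4 had exact permutation p-values of 0.2, 0.3 and 0.8.

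**Figure D2:**
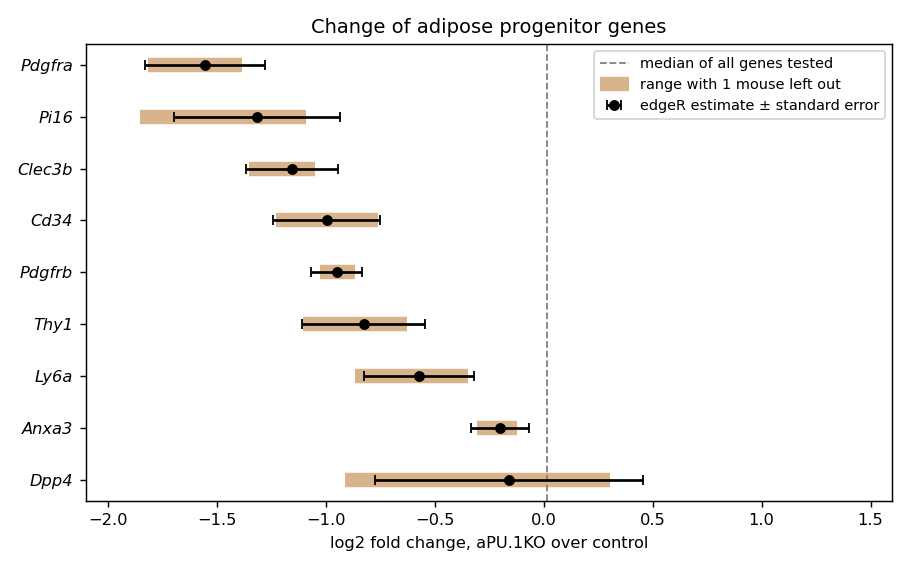
Log2 fold change of each progenitor gene (horizontal axis, aPU.1KO over control), with points and whiskers for the edgeR estimate and its standard error, a band for the range with 1 mouse left out in turn, and a dashed line at the median of all genes tested. Only the band of Dpp4 crosses 0.

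Per kilobase of exon, Ly6a stood highest in both groups, at 36.8 CPM per kb in the control and 24.8 CPM per kb in the aPU.1KO mice, and Pi16 lowest, at 0.374 and 0.150 CPM per kb. In the control mice the order of levels between them was Clec3b, Anxa3, Pdgfrb, Cd34, Pdgfra, Dpp4 and Thy1. The ranges of Anxa3 and Pdgfrb overlapped there, as did those of Dpp4 and Thy1, and all other neighbours were apart. In the aPU.1KO mice Pdgfra stood below Dpp4, at 1.07 against 1.25 CPM per kb, but the 3 Dpp4 values spanned those of Pdgfra and the order is not settled. The ranges of Clec3b and Anxa3, of Pdgfrb and Cd34 and of Pdgfra and Thy1 overlapped in this group as well.

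Set against Pdgfra within each mouse, Anxa3 and Ly6a were the genes whose ratio was higher in all aPU.1KO mice than in the highest control mouse. The log2 ratio of Anxa3 to Pdgfra had a mean of 0.49 in the control and 1.78 in the aPU.1KO mice, a difference of 1.29, and that of Ly6a differed by 0.86. Both had the smallest exact permutation p that 3 mice against 3 allow, 0.1, and 0.32 after adjustment over the 8 ratios, so this test could not have passed a threshold of 0.05. The other 6 ratios to Pdgfra overlapped between the groups.

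Promoter sequence from RefSeq (GRCm38.p6) was used for 4 of the 9 genes, Pdgfra, Cd34, Dpp4 and Pi16. Promoters of the other genes were not examined, whether or not RefSeq holds them. Of the 4, 3 are printed: Pdgfra and Pi16, with the most negative log2 fold changes, and Dpp4, whose log2 fold change was nearest to 0. Each line is the 250 bases before the start that RefSeq gives, which for Pi16 lies inside the gene as placed above from the GENCODE annotation, 5′ to 3′ on the strand of the gene, and capitals mark GGAA, the core that ETS factors such as PU.1 bind, or its reverse complement TTCC. Pdgfra is chr5:75152001-75152250 on the forward strand, Pi16 is chr17:29318632-29318881 on the forward strand and Dpp4 is chr2:62412232-62412481 on the reverse strand.
Pdgfra: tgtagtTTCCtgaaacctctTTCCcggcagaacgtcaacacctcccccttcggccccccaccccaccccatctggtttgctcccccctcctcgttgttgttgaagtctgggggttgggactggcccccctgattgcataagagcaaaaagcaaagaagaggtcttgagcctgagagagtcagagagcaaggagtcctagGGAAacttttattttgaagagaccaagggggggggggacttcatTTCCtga
Pi16: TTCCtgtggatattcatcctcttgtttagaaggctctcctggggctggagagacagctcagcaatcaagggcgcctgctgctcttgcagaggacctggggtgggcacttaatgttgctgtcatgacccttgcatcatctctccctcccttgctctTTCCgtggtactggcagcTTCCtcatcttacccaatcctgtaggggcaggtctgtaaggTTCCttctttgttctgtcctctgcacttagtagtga
Dpp4: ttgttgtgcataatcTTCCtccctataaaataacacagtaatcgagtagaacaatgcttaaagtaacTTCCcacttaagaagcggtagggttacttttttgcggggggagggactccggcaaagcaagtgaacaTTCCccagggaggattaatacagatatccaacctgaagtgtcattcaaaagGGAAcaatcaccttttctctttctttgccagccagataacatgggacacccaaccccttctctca
The windows of Pdgfra, Pi16 and Dpp4 held 4 matches to GGAA each and that of Cd34 held 5, where 93.4% of 32851 RefSeq windows of this length hold at least 1 on either strand. The longer GAGGAA, which contains GGAA, was found once in Dpp4 and once in Pi16 and in 23.3% of all windows, and GAGGAAGT, which contains both, was in none of the 4 and in 2.44% of all windows.

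Further genes of progenitors and preadipocytes were read from lists. Their counts at an unadjusted p under 0.05 by edgeR stand against 13.7% of all genes tested in the lower and 11.9% in the higher direction. Of 12 other genes of interstitial progenitors 10 were tested, and 4 had an unadjusted p under 0.05 in the lower direction and none in the higher. Their sum overlapped between the groups, at 1173 to 1297 CPM in the control and 763 to 1219 CPM in the aPU.1KO mice. Fbn1, the gene of the microfibril protein fibrillin, fell by 1.91 on the log2 scale (standard error 0.19, edgeR adjusted p = 0.0268). It was the only gene of this list past the adjusted threshold by edgeR, and 4 passed it by DESeq2, all lower. Dact2 had the most negative log2 fold change of the list, -2.26, at means of 0.943 and 0.196 CPM. Anxa1, the most abundant, had 874 ± 60.4 and 809 ± 191 CPM and a log2 fold change of -0.11, and Efhd1 had 0.042, with overlapping groups for both.

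Of 12 genes of committed preadipocytes 11 were tested. None passed the adjusted threshold by edgeR, and 5 had an unadjusted p under 0.05 by edgeR, all lower. By DESeq2 4 passed the adjusted threshold, all lower. The sum of the 12 was 4038 to 4312 CPM in the control and 3301 to 3581 CPM in the aPU.1KO mice, without overlap. Col4a1, a chain of basement membrane collagen and the most abundant of the list, had 2044 ± 26.6 CPM in the control and 1340 ± 181 CPM in the aPU.1KO mice (log2 fold change -0.61, standard error 0.13, edgeR adjusted p = 0.0783). Cxcl14, a chemokine, had the most negative log2 fold change, -2.32, and Agt, the angiotensin precursor, the most positive, 0.98, and the groups of both overlapped.

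The 6 genes of the CD142+ regulatory progenitors were split, and their sum overlapped, at 77.0 to 90.6 CPM in the control and 74.9 to 92.8 CPM in the aPU.1KO mice. F3, the gene of tissue factor or CD142 itself, was higher in every aPU.1KO mouse, at 32.0, 33.1 and 29.7 CPM in the control and 58.0, 63.0 and 43.2 CPM in the aPU.1KO mice. Its log2 fold change was 0.79 with a standard error of 0.14 (edgeR adjusted p = 0.0725, DESeq2 adjusted p = 0.000254). The other 5 had negative log2 fold changes, 3 of them with an unadjusted p under 0.05, and Mgp, the matrix Gla protein, had the most negative, -2.08, with overlapping groups, since control mouse 2 was at 4.33 CPM and control mice 1 and 3 at 19.1 and 22.6 CPM.

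Markers of other cells in the fraction were read in the same way, and their part in the values of the progenitor genes was not tested. The summed levels of macrophage, T cell, hepatocyte and adipocyte genes did not overlap between the groups, and those of endothelial, mural and mesothelial genes did. The counts of genes at an unadjusted p under 0.05 stand against 13.7% of all genes tested in the lower and 11.9% in the higher direction. Of 12 macrophage genes 10 had an unadjusted p under 0.05 by edgeR and were lower. Mrc1 alone passed the adjusted threshold by edgeR, and 10 passed it by DESeq2. Their sum was 1477, 480 and 1427 CPM in the control mice and 337, 263 and 316 CPM in the aPU.1KO mice. Adgre1, which encodes F4/80, had a log2 fold change of -2.60, Lyz2, the most abundant, -2.26, and Cd163 0.29. No macrophage gene was at 0 in any library. Control mouse 2, lowest of the control mice in the macrophage sum, was also their lowest in Pdgfra, Pdgfrb, Ly6a, Thy1 and Clec3b, and was not in Cd34, Dpp4, Pi16 and Anxa3.

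The 12 endothelial genes all had negative log2 fold changes, 2 of them with an unadjusted p under 0.05, a share near that of all genes, and none was at 0 in any library. Their sum was 926, 1059 and 737 CPM in the control mice and 437, 950 and 592 CPM in the aPU.1KO mice, and the groups overlapped. In the aPU.1KO mice this sum was lowest in mouse 1 and highest in mouse 2, an order also seen in Cd34, Ly6a, Pi16, Clec3b and Ly6c1 and not in the other progenitor genes. Vwf, which encodes von Willebrand factor, had the most negative log2 fold change at -0.78, Kdr the least at -0.20, and Cdh5, the most abundant, -0.61.

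**Figure D3:**
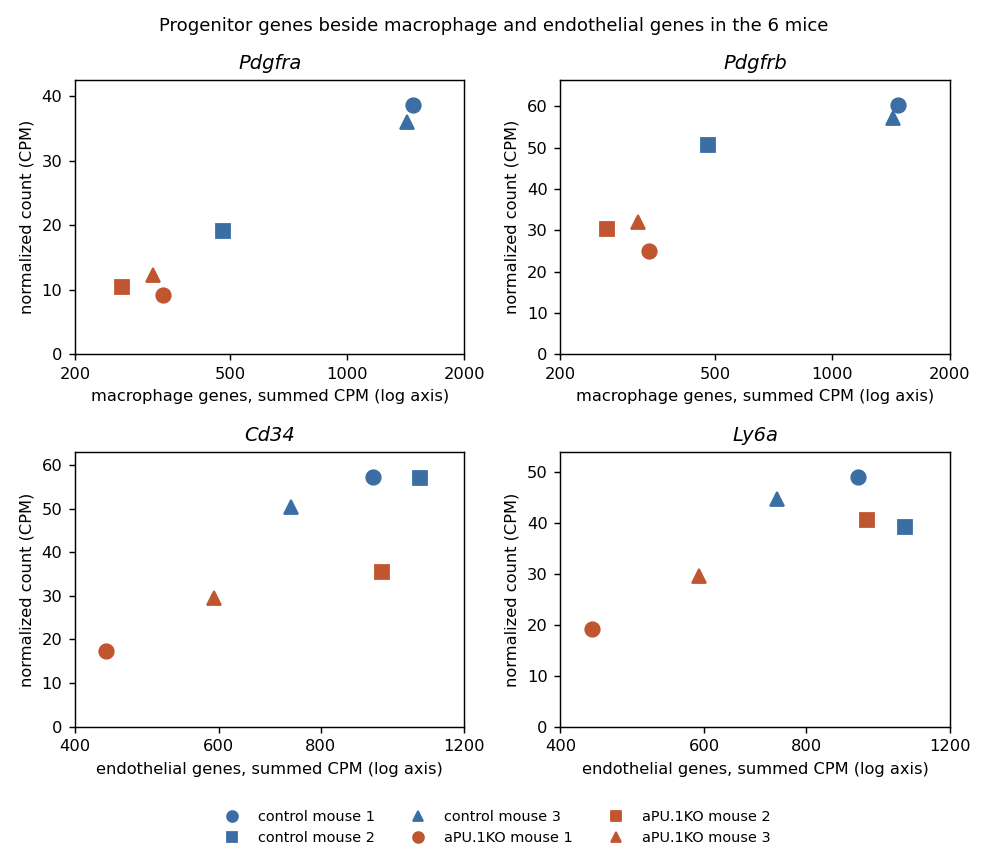
Normalized counts of Pdgfra and Pdgfrb (vertical axes, CPM, from 0) against the summed macrophage genes, and of Cd34 and Ly6a against the summed endothelial genes (horizontal log axes, CPM), with a point per mouse; these pairs were chosen after the values were seen. Control mouse 2, at 480 CPM of macrophage genes, is the lowest control mouse for both receptors, at 19.2 CPM of Pdgfra and 50.7 CPM of Pdgfrb.

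Of 10 mural cell genes 5 had an unadjusted p under 0.05 by edgeR, all lower. None passed the adjusted threshold by edgeR, and 4 did by DESeq2, all lower. Notch3, which acts in vascular smooth muscle, had the most negative log2 fold change, -0.99, and Mcam, the most abundant, the most positive, 0.088. The mural sum overlapped between the groups, at 1047 to 1430 CPM in the control and 985 to 1160 CPM in the aPU.1KO mice. Of the 10 T cell genes 4 were tested, and their summed level of 8.23 to 30.1 CPM in the control and 2.94 to 5.12 CPM in the aPU.1KO mice did not overlap. Il7r, which made up most of it in the control mice, had a log2 fold change of -3.14. Cd3d, a defining gene of T cells, stood at 0.785, 0.700 and 1.07 CPM in the control and 0.661, 0.768 and 0.142 CPM in the aPU.1KO mice, and Cd3e and Skap1 were at 0 in 1 aPU.1KO library each.

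Of 10 genes of mesothelium, the cell layer that covers the epididymal pad, 8 were tested and none had an unadjusted p under 0.05. Their sum was 5.71 to 24.4 CPM in the control and 8.57 to 10.5 CPM in the aPU.1KO mice, with Upk3b the most abundant, Muc16 the most negative at -1.77 and Msln nearest to 0 at -0.035. Bnc1 was at 0 in aPU.1KO mouse 2. All 8 hepatocyte genes had an unadjusted p under 0.05 by edgeR and were lower. Of these, 3 passed the adjusted threshold by edgeR and 8 by DESeq2. Their sums were 38.1 to 62.8 CPM in the control and 17.1 to 23.3 CPM in the aPU.1KO mice, led by Alb at a log2 fold change of -0.86. Fgb was at 0 in all 3 aPU.1KO mice, and Apoa1, Ttr and Fga in at least 1. Of 14 adipocyte genes 10 had an unadjusted p under 0.05 and were higher, Cfd the most at a log2 fold change of 1.71, while Lpl, the most abundant, had 0.33 and Lep, with an unadjusted p under 0.05 in the lower direction, -0.77.

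General fibroblast genes, most of them matrix genes, were summed as a reference for the progenitor genes. Of the 12, 8 had an unadjusted p under 0.05, all lower, with a median log2 fold change of -0.88 over the list and Lum, the gene of the collagen-binding lumican, lowest at -2.21. Gsn, which encodes the actin-severing gelsolin, made up 71.7% of the summed control level, was expressed at 5757 to 6361 CPM in the control mice and was higher in every aPU.1KO mouse, at a log2 fold change of 0.21. Set against the sum with Gsn, 6 of the 9 progenitor genes were lower in every aPU.1KO mouse (exact permutation p = 0.1 each, 0.15 after adjustment over 9 ratios). Set against the sum of the other 11 genes, a reference chosen after the values were seen, none was lower in every aPU.1KO mouse and Anxa3 was higher in every one, by 0.70 on the log2 scale (exact permutation p = 0.1, adjusted p = 0.9). Against this second reference the log2 ratios of Pdgfra, Pi16 and Clec3b differed between the groups by -0.59, -0.47 and -0.23, with exact permutation p-values of 0.2, 0.5 and 0.6. Those of Cd34, Pdgfrb and Thy1 differed by -0.15, -0.051 and 0.049, with exact permutation p-values of 0.7, 0.8 and 0.8, and those of Ly6a and Dpp4 by 0.27 and 0.38, with 1.0 and 0.7.

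**Figure D4:**
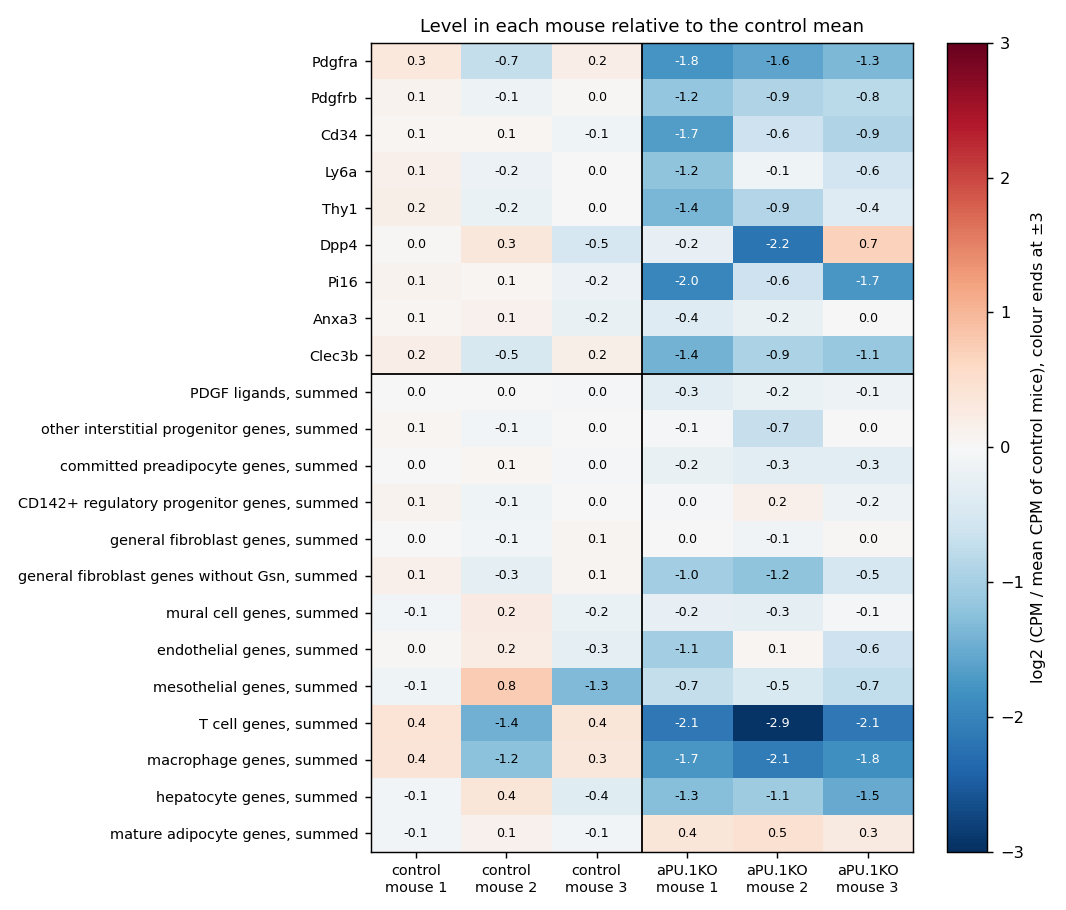
Level of each progenitor gene (upper rows) and of each summed gene list (lower rows) in the 6 mice, as log2 of CPM over the control mean, with blue below and red above the control mean and the value in each cell; colours end at 3 in either direction. The aPU.1KO mice are all below the control mice in 6 of the upper rows and in the sums of PDGF ligands, committed preadipocyte, T cell, macrophage and hepatocyte genes and of fibroblast genes without Gsn, and the adipocyte sum is above the control mean in all 3.

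For each gene the 3 other genes with the most similar profile were found over the 6 mice, by the root mean square difference of centred log2 CPM. Those of Pdgfra were Mmp14, a membrane-bound matrix metalloproteinase, Sdc3 and Cmtm3, at differences of 0.0273, 0.0486 and 0.0649. Those of Pdgfrb were Stard9, Rps6ka1 and Ace (0.0291 to 0.0774), those of Cd34 were Mef2c, Plat and Ltbp1 (0.0716 to 0.0924), and those of Ly6a were Rgs4, Dpysl2 and Fmnl3 (0.0695 to 0.0824). Clec3b was nearest to Emilin1, an elastic fibre glycoprotein, Lmnb1 and Slc29a1 (0.0518 to 0.0611), and Thy1 to Tgfbi, Col6a6 and Lama5 (0.0781 to 0.109). Pi16 was nearest to Adamtsl1, Spib and Lpar2 (0.107 to 0.163), and Anxa3 to B3galt6, Zfp3 and Spred2 (0.0279 to 0.0495). Dpp4 had the least similar neighbours, Galnt16, Hoxd4 and Mapk8ip2, at 0.173 to 0.227.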

How the data were processed

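Epididymal adipocyte RNA came from 3 control mice and 3 aPU.1KO mice. The authors deposited estimated counts per gene, as whole numbers without normalization, so no further rounding was needed. Per the submitters' processing notes Salmon, FastQC and GRCm38 were used, and the Salmon version and annotation are not given in the sources used here. Of 35122 Ensembl genes, 35031 were matched to a symbol in GRCm38 annotation, and unmatched genes held 0.0367% of counts. Groups follow the labels, and totals per library ranged from 20550252 to 69283842.

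Counts were filtered with filterByExpr, scaled by TMM factors and compared with the quasi-likelihood test of edgeR 4.0.16 in R 4.3.3, with Benjamini-Hochberg adjustment over the 13925 genes tested. DESeq2 1.42.0, limma-voom (limma 3.58.1), other factors and filters, robust dispersion, legacy = FALSE, control library 1 thinned to 22770714 counts, and leaving out each mouse were the alternatives. The analysis was tested on a simulated data set with 200 changed genes, in which no mouse was made to stand apart from its group. In it DESeq2 called 86 of the genes changed 4-fold, 71 of those changed 2-fold and 49 unchanged ones. The counts for edgeR were 80, 55 and 12, so the adjusted p-values of DESeq2 were the less strict there. Whether this holds for the mice was not tested. Ratios of log2 CPM used a prior count of 2 and exact permutation tests (scipy 1.17.1). Intervals are edgeR estimates with t quantiles. The libraries were checked for duplicates, and none was found. Replicates are separate animals. Sequence similarity came from BLAST 2.17.0, and figures from Python 3.11.15 with matplotlib 3.10.9.

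The genes named were the 9 progenitor genes, Spi1, for each other list the tested genes with the lowest and the highest log2 fold change and the highest level, and the 3 genes nearest in profile to each progenitor gene. Fbn1, Mrc1, Mertk, Pdgfa, Pdgfb, Ly6c1, Cd3e, Skap1, Bnc1, the hepatocyte genes other than Fgb and Alb, and further genes of the closing observations were named after their values were seen. The progenitor genes, lists and tests were chosen with earlier results of these data known.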

Additional observations from a re-analysis of the deposited data

How the results depend on the processing

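The log2 fold changes of the 9 progenitor genes kept their direction under every alternative run, except that of Dpp4, which ran from -0.91 to 0.30 with a mouse left out (0.028 if this was control mouse 2, 0.30 if aPU.1KO mouse 2); the cause was not tested. Of the 9, edgeR called 1 at an adjusted p under 0.05, and the count was 0 with at least 10 counts required in every library, 0 with robust dispersion, 3 with no filter, 5 with DESeq2 and 0 to 3 with a mouse left out (3 without control mouse 2, 0 without any other). With 0 called, 5 or 6 of the 9 still had an unadjusted p under 0.05, and over all alternatives this count ran from 5 to 7. Of all genes 33 were called, 5 with at least 10 counts, 146 with no filter, 1833 with DESeq2 and 0 to 1193 with a mouse left out (0 without control mouse 1, 1193 without control mouse 2). Of the genes in the lists, members aside, edgeR called 5 of 111 tested and DESeq2 52 of 121, in either direction. Over all genes edgeR called 0.18% in the lower and 0.0575% in the higher direction, and DESeq2 7.48% and 3.51%. RLE and upper quartile factors, voom, legacy = FALSE and thinning kept the count of progenitor genes at 1. The cause of these differences was not tested, beyond the changed number of genes or mice. No paired analysis was possible because the labels carry animal numbers that no 2 groups share. Low counts limit Thy1 and Pi16, and 3 mice per group limit every test.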

Other observations

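Genes outside the progenitor list were looked at after the values of Dpp4 were seen, since aPU.1KO mouse 2 was its lowest library. Of the other interstitial progenitor genes, Pcolce2, which encodes an enhancer of procollagen processing, was also lowest there, at 6.78 CPM against 38.5 and 44.3 CPM in aPU.1KO mice 1 and 3. Anxa1 stood at 589 CPM against 913 and 925 CPM, and Cd55, Sema3c, Creb5 and Dact2 were lowest in aPU.1KO mouse 2 too. The sum of that list, most of which is Anxa1, was 763 CPM against 1183 and 1219 CPM. Other genes of the list went the other way: Fbn1, Mfap5, Igfbp6 and Efhd1 were highest of the aPU.1KO mice in mouse 2, as were the progenitor genes Cd34, Ly6a, Pi16 and Clec3b. The fibrillar collagen gene Col1a1 was lowest in aPU.1KO mouse 2, at 98.9 CPM against 260 and 505 CPM in aPU.1KO mice 1 and 3 and 477 to 542 CPM in the control mice. The smooth muscle actin gene Acta2 stood at 47.6 CPM in aPU.1KO mouse 2 and at 198 and 217 CPM in aPU.1KO mice 1 and 3, with 102 to 252 CPM in the control mice, while the mural genes Rgs5, Cspg4, Notch3 and Abcc9 were highest of the aPU.1KO mice in mouse 2. Col3a1, another fibrillar collagen gene, was not lowest in that mouse, at 406 CPM against 297 and 277 CPM. The low values in aPU.1KO mouse 2 were thus shared by some genes of each list and not by others, and no test was run on this pattern.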
